A study of Mus musculus with 6 samples.

Results

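Calmodulin and the protein kinases that it switches on were followed in RNA-seq libraries of the mouse dentate gyrus, the part of the hippocampus whose main neurons are granule cells. The genes examined were those with the gene names Camk2a, Camk2b, Camk2d, Camk2g, Camk4, Camkk1, Camkk2, Calm2 and Calm3, 9 of the 54040 genes in the deposited tables. All 9 are protein-coding and passed the filter on low counts, which kept 16928 genes. Of the libraries, 3 were labelled cKO, and by the labels came from dentate gyrus deficient in YTHDF2 (a reader of N6-methyladenosine in RNA), and 3 were labelled Ctrl. All mice were C57BL/6, aged 40 days after birth. By label the material is dentate gyrus and its cell type the granule cell. The sources used here do not give the line that drives the deletion, the genotype of the controls, any pooling of animals or any sorting of cells. The labels do not say that replicates were separate animals, so p-values measure the spread between these libraries only.

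Calmodulin is a small calcium sensor that wraps around its target enzymes once calcium has bound to it. In neurons it activates CaMKII, a large holoenzyme of alpha, beta, gamma and delta subunits (Camk2a, Camk2b, Camk2g and Camk2d) that holds its activity by phosphorylating itself and is best known for its part in synaptic plasticity. A second branch is a cascade, in which the kinase kinases CaMKK1 and CaMKK2 phosphorylate CaMKI and the nuclear kinase CaMKIV (Camk4), and CaMKIV phosphorylates the transcription factor CREB.

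Calm2 and Calm3 make the same protein from different messages, and their sequences are shown for that reason. In GENCODE M21, the coding sequences of Calm2 and Calm3 each encode 149 amino acids, with 0 amino acid differences. At the level of bases they differ at 78 of 447 coding positions. The third of 6 coding exons, which holds the first calcium-binding loop, is printed 5′ to 3′ on the coding strand, with capitals at the 24 of 144 positions where the genes differ. It lies at chr17:87435791-87435934 on the minus strand for Calm2 and chr7:16917585-16917728 on the minus strand for Calm3 (GRCm38).
Calm2: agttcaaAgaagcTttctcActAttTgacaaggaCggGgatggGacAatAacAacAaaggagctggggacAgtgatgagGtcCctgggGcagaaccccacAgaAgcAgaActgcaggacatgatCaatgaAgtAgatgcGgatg
Calm3: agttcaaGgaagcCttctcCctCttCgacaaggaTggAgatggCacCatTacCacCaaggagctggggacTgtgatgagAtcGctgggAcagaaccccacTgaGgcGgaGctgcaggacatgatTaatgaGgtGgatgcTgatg

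Closer copies of calmodulin exist as processed pseudogenes. The pseudogene Gm7308 on chromosome 6 matches the Calm2 coding sequence at 96.9% of 447 aligned bases and held 35 to 68 counts per library, at most 0.392% of the counts of Calm2. Gm5881, also on chromosome 6, matches Calm3 at 96.2% over 367 bases and held 55 to 69 counts, at most 0.275% of those of Calm3. The other 3 pseudogenes found, Gm14480, Gm15720 and Gm7039, held 2, 6 and 10 counts over all libraries. The sources used here do not say how the counting treated reads that match several places, and the calmodulin counts are uncertain by what such reads would add.

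The libraries held 16794642 to 19190101 counts each, and the 9 genes had 327 (Camk2d, cKO replicate 1) to 100466 counts (Camk2a, Ctrl replicate 3) in a library. The granule cell markers Prox1 and C1ql2 stood at mean levels of 62.6 and 132 FPKM (counts scaled to gene length in kilobases and to library size). Counts of the targeted gene did not separate the groups. The deleted exons are not stated, and a count over the whole gene may miss a deletion of part of it, so these values do not settle whether a library matches its label. Ythdf2 stood at 37.9, 68.6 and 68.4 CPM in Ctrl replicates 1, 2 and 3 and at 56.8, 56.5 and 54.5 CPM in cKO replicates 1, 2 and 3. The library labelled Ctrl replicate 1 thus lay below every cKO library, and results are also given without it. The log2 fold change of Ythdf2 was -0.06 (edgeR adjusted p = 0.882), and -0.29 without that library (edgeR adjusted p = 0.00951). That library was left out for its Ythdf2 value, so the lower value of Ythdf2 in cKO then follows from the choice. Without Ctrl replicate 2 or Ctrl replicate 3 instead, the log2 fold change of Ythdf2 was 0.0605 and 0.0687. CPM is the deposited count scaled to the size of its library with TMM factors, fold changes are cKO over Ctrl, and errors are SD over 3 libraries unless named otherwise. In bulk tissue, fewer cells of a type and less RNA per cell cannot be told apart.

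Of the 9 genes, 1 passed edgeR's test at a false discovery rate of 0.05 over all genes. This was Camkk1, which was 1.12-fold higher in cKO. Over all tested genes 3.95% passed, 3.07% as higher and 0.874% as lower in cKO. The CPM ranges of the groups did not overlap for 3 of the 9 genes, where Camkk1 and Camk2b were higher and Calm2 lower in every cKO library than in any control. The same holds for 22.9% of all tested genes. The median log2 fold change was -0.03 over the 9 genes and 0.00 over all tested genes. Of the 9 values 3 were above 0 and 6 below, where 49.7% of all tested genes were above 0.

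**Figure D1:**
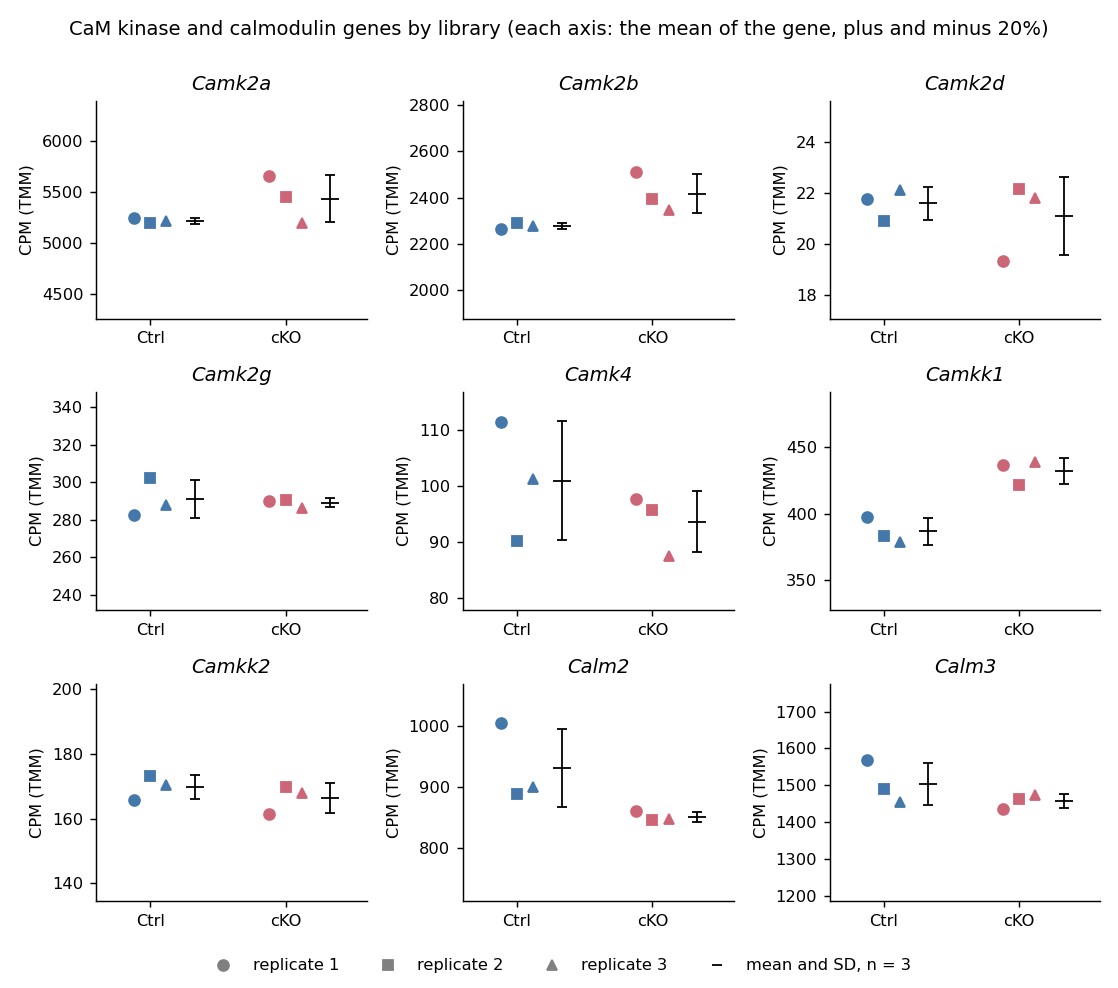
TMM-scaled CPM of each gene in the 6 libraries, with replicates 1 to 3 as circle, square and triangle, and the mean and SD (n = 3) beside them. Each vertical axis spans the mean of the gene plus and minus 20% and does not start at 0. Camkk1 lies at 421 to 439 CPM in cKO and at 379 to 398 CPM in Ctrl, and Calm2 is highest in Ctrl replicate 1 (1005 CPM).

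Calm2 is on chromosome 17 (minus strand, 87433412 to 87446935) and Calm3 on chromosome 7 (minus strand, 16915379 to 16924114). Calm2 stood at 1005, 889 and 899 CPM in Ctrl replicates 1, 2 and 3 and at 860, 846 and 847 CPM in cKO replicates 1, 2 and 3. All cKO libraries were below all controls, and the control spread came mostly from replicate 1, which was far above the other two. The log2 fold change of Calm2 was -0.13 ± 0.04 (SE), with a 95% interval of -0.23 to -0.03 and an edgeR adjusted p of 0.133. Without the library labelled Ctrl replicate 1 it was -0.07 (edgeR adjusted p = 0.326). Corrected for GC content and gene length in each library, Calm2 stood at -0.04 (edgeR adjusted p = 0.704). Calm2 passed the test at -0.14 when no filter on low counts was applied (edgeR adjusted p = 0.0217).

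Calm3 stood at 1567, 1489 and 1453 CPM in Ctrl replicates 1, 2 and 3 and at 1435, 1462 and 1474 CPM in cKO replicates 1, 2 and 3. The groups overlapped, and Ctrl replicate 1 was again the highest library. The log2 fold change was -0.04 ± 0.04 (SE), with a 95% interval of -0.12 to 0.03 (edgeR adjusted p = 0.583), and -0.01 without the library labelled Ctrl replicate 1.

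Per length, Calm2 and Calm3 stood at nearly the same level. Of their summed FPKM, Calm2 held 50.5% ± 0.901 in Ctrl and 49.1% ± 0.563 in cKO. The ratio of Calm2 to Calm3 FPKM was 1.06, 0.986 and 1.02 in Ctrl replicates 1, 2 and 3 and 0.990, 0.956 and 0.949 in cKO, with overlap between the groups. The sum was 1323, 1217 and 1212 FPKM in Ctrl replicates 1, 2 and 3 and 1171, 1171 and 1178 FPKM in cKO. Every cKO sum was below every control sum, and Ctrl replicate 1 stood farther above the other controls than those stood above the highest cKO sum.

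CaMKII messages were dominated by the alpha subunit. Camk2a (chromosome 18, plus strand, 60925618 to 60988152) alone took 0.518% to 0.565% of all counts of a library and ranked at place 16 of the 16928 tested genes by mean FPKM. It stood at 5246, 5191 and 5212 CPM in Ctrl replicates 1, 2 and 3 and at 5657, 5449 and 5195 CPM in cKO replicates 1, 2 and 3. The controls lay close together, whereas cKO spread from the level of the controls in replicate 3 to the highest value in replicate 1. The log2 fold change of Camk2a was 0.06 ± 0.03 (SE), with a 95% interval of -0.02 to 0.13 and an edgeR adjusted p of 0.42.

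Camk2b, whose subunit ties the holoenzyme to actin filaments, is on chromosome 11 (minus strand, 5969644 to 6066362). It stood at 2265, 2292 and 2279 CPM in Ctrl replicates 1, 2 and 3 and at 2510, 2396 and 2347 CPM in cKO replicates 1, 2 and 3. All cKO libraries were above all controls, by amounts from small in replicate 3 to larger in replicate 1, and the log2 fold change was 0.09 ± 0.03 (SE), with a 95% interval of 0.01 to 0.16 and an edgeR adjusted p of 0.208. Over the alternatives run the adjusted p of Camk2b lay between 0.134 and 1. With each library corrected for GC content and gene length the value was 0.03, and 0.01 for Camk2a. The same correction moved other genes away from 0, to -0.10 for Calm3, -0.08 for Camkk2 and -0.04 for Camk2g (edgeR adjusted p = 0.245, 0.388 and 0.712).

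The gamma and delta subunits showed smaller differences. Camk2g (chromosome 14, minus strand, 20734875 to 20794088) had 283, 302 and 288 CPM in Ctrl and 290, 291 and 286 CPM in cKO, with all cKO libraries inside the control range (log2 fold change -0.01, 95% interval -0.09 to 0.08, edgeR adjusted p = 0.943). Camk2d (chromosome 3, plus strand, 126596302 to 126846326) was the lowest of the 9 genes, at 21.8, 20.9 and 22.1 CPM in Ctrl and 19.4, 22.2 and 21.8 CPM in cKO. Its groups overlapped, with cKO replicate 1 the lowest library (log2 fold change -0.03, 95% interval -0.20 to 0.13, edgeR adjusted p = 0.88). Without the library cKO replicate 1 the value of Camk2d was 0.02, and without Ctrl replicate 2 that of Camk2g was 0.01, so that neither sign held across libraries. Other annotated genes lie within Camk2a, Camk2d and Camk4, Gm15551 on the opposite strand of Camk2d among them, and each held at most 0.741% of the counts of its host in a library. The sources used here do not say whether the counting used strand.

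Camk2a led the CaMKII messages in every library. Of the summed FPKM of these subunits, Camk2a held 70.2% ± 0.32 in Ctrl and 70.1% ± 0.333 in cKO, Camk2b 25.1% ± 0.168 and 25.5% ± 0.241, Camk2g 4.57% ± 0.16 and 4.35% ± 0.139, and Camk2d 0.0966% ± 0.00284 and 0.0906% ± 0.00945. The ratio of Camk2a to Camk2b FPKM was 2.83, 2.77 and 2.80 in Ctrl replicates 1, 2 and 3 and 2.76, 2.78 and 2.71 in cKO. These ratios overlapped between the groups. The shares rest on the deposited gene length, which sums all annotated exons and for Camk2d, at 22493 bases, is much longer than the longest single transcript at 5524 bases. With the longest transcript as length (a choice made after seeing the data) Camk2a held 62.3% and Camk2b 32.8% in Ctrl.

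**Figure D2:**
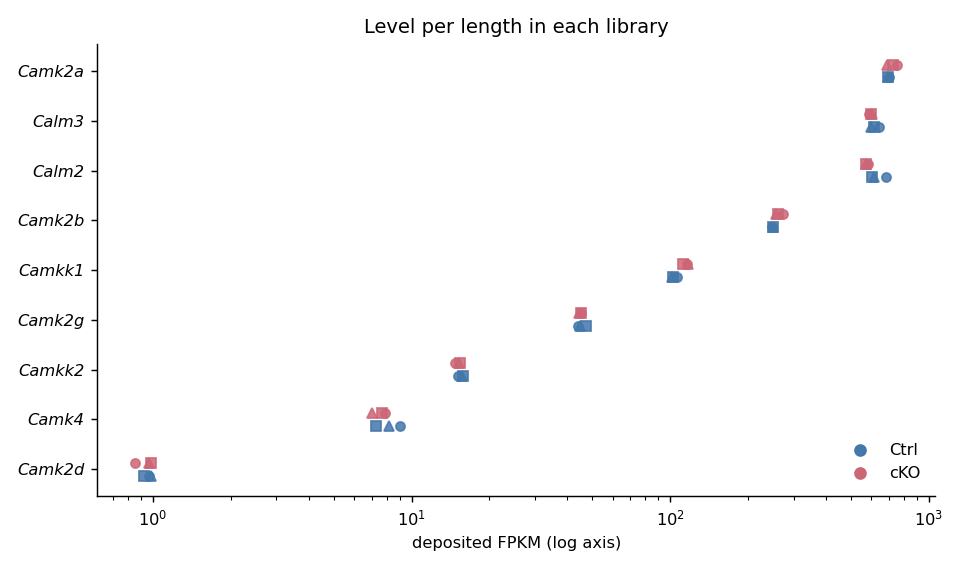
Deposited FPKM of the 9 genes in each library on a log axis, with genes ordered by their mean, controls in blue and cKO in red, and replicates 1 to 3 as circle, square and triangle. Means run from 0.945 FPKM for Camk2d to 710 FPKM for Camk2a, a span far wider than the difference between groups of any gene.

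By mean FPKM over the 6 libraries the order was Camk2a at 710, Calm3 at 608, Calm2 at 604, Camk2b at 256, Camkk1 at 109, Camk2g at 45.1, Camkk2 at 15.3, Camk4 at 7.85 and Camk2d at 0.945. Calm3 and Calm2 overlapped across libraries and changed places with the longest transcript as length (643 against 736). The ranges of all other neighbours in this order did not overlap by deposited FPKM. The order of Camkk2 and Camk4 also depends on the length used. Their deposited lengths of 10921 and 12331 bases are much longer than their longest transcripts, at 4861 and 2717 bases. The lowest FPKM of Camk2a was 691 and the highest of Calm2 was 681, in Ctrl replicate 1.

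Camkk1, the alpha form of the kinase kinase, is on chromosome 11 (plus strand, 73019008 to 73042073). It stood at 398, 384 and 379 CPM in Ctrl replicates 1, 2 and 3 and at 437, 421 and 439 CPM in cKO replicates 1, 2 and 3. Every cKO library was above every control, and the gap between the lowest cKO and the highest control library was wider than the range within either group. Camkk1 rose from 387 ± 9.97 to 432 ± 9.68 CPM. Its log2 fold change was 0.16 ± 0.04 (SE), with a 95% interval of 0.08 to 0.24 and an edgeR adjusted p of 0.0303. This is a 1.12-fold difference (95% interval 1.06 to 1.18).

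The call of Camkk1 did not hold through the loss of single libraries or the correction for GC content and gene length. Its direction was the same under all 19 alternatives. Leaving out 1 library gave log2 fold changes of 0.145 to 0.182, each from a fit with fewer libraries. Without the library labelled Ctrl replicate 1 its log2 fold change was 0.18 (edgeR adjusted p = 0.0167). Without any other single library it lost the call, with edgeR adjusted p-values of 0.102 without Ctrl replicate 2, 0.109 without Ctrl replicate 3, 0.103 without cKO replicate 1, 0.0501 without cKO replicate 2 and 0.153 without cKO replicate 3. After correction of each library for GC content and gene length the log2 fold change was 0.12 (edgeR adjusted p = 0.153). The longest Camkk1 transcript has a GC content of 55.2%, against a median of 49.4% over tested genes, 55.6% over the genes that rose and 46.2% over those that fell.

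Some markers of other cells moved beside this rise. Over all tested genes 3.07% passed as higher and 0.874% as lower in cKO. Of 7 microglial markers 5 fell (Cx3cr1, P2ry12, Ctss, C1qb and Tmem119), and the summed level of all 7 was 153 to 170 FPKM in Ctrl and 129 to 138 FPKM in cKO. Without the library labelled Ctrl replicate 1, or with GC and length corrected, 3 of these markers fell, and Ctss and C1qb lost the call without that library. Of 7 astrocyte markers 3 fell (Gja1, Aldoc and Aqp4), with sums of 752 to 761 FPKM in Ctrl and 677 to 687 FPKM in cKO. With that library left out 3 fell as well, with Gfap in place of Aqp4, and with GC and length corrected 2 astrocyte markers fell. None of these markers was at 0, and their part in the results for Camkk1, Camk2b and Calm2 was not tested. Of 9 granule cell markers 1 rose (Pdzd2) and 1 fell (Stxbp6), with sums of 388 to 441 FPKM in Ctrl and 386 to 404 FPKM in cKO, and without that library Trpc6 fell too. Among the markers of other cells, 1 of 4 of mossy cells (Csf2rb2), 1 of 5 of CA1 neurons (Fibcd1) and 1 of 6 of CA2 and CA3 neurons (Cdh24) rose. Of these, Fibcd1 did not pass without that library or with GC and length corrected. In these lists 2, 3 and 3 values were above 0 and 2, 2 and 3 below. None passed of 7 markers of GABAergic neurons, 6 of the oligodendrocyte lineage and 5 of endothelial and mural cells. None of 3 tested choroid plexus markers and 3 blood markers passed either, but 1 blood marker fell without that library. None of 8 markers of immature neurons and progenitors passed, with 7 values below 0 and 1 above (49.7% above 0 over all tested genes). Their sums were 87.43 to 90.31 FPKM in Ctrl and 78.32 to 83.95 FPKM in cKO, and their part in the results was not tested either.

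Camkk2, the beta form, is on chromosome 5 (minus strand, 122731170 to 122779409). It stood at 166, 173 and 171 CPM in Ctrl replicates 1, 2 and 3 and at 161, 170 and 168 CPM in cKO replicates 1, 2 and 3. The groups overlapped, and the log2 fold change was -0.03 ± 0.04 (SE), with a 95% interval of -0.12 to 0.06 (edgeR adjusted p = 0.789). The ratio of Camkk1 to Camkk2 FPKM was 7.04, 6.49 and 6.51 in Ctrl replicates 1, 2 and 3 and 7.94, 7.26 and 7.65 in cKO, without overlap between the groups. Camkk1 held 87.0% ± 0.518 of the summed FPKM of this pair in Ctrl and 88.4% ± 0.456 in cKO. The ratio and the share rest on the deposited length of Camkk2, at 10921 bases against 4861 for its longest transcript. With the longest transcript as length (a choice made after seeing the data) Camkk1 held 74.9% in Ctrl and 77.3% in cKO.

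Camk4, the nuclear kinase at the end of the cascade, is on chromosome 18 (plus strand, 32939041 to 33195767). It stood at 112, 90.2 and 101 CPM in Ctrl replicates 1, 2 and 3 and at 97.7, 95.7 and 87.5 CPM in cKO replicates 1, 2 and 3. The controls were spread by 1.24-fold, the widest range within a group among the 9 genes, and the groups overlapped. The log2 fold change of Camk4 was -0.11 ± 0.07 (SE), with a 95% interval of -0.26 to 0.04 and an edgeR adjusted p of 0.45. It was -0.03 without the library labelled Ctrl replicate 1 and -0.19 without Ctrl replicate 2, with edgeR adjusted p-values of 0.861 and 0.16.

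**Figure D3:**
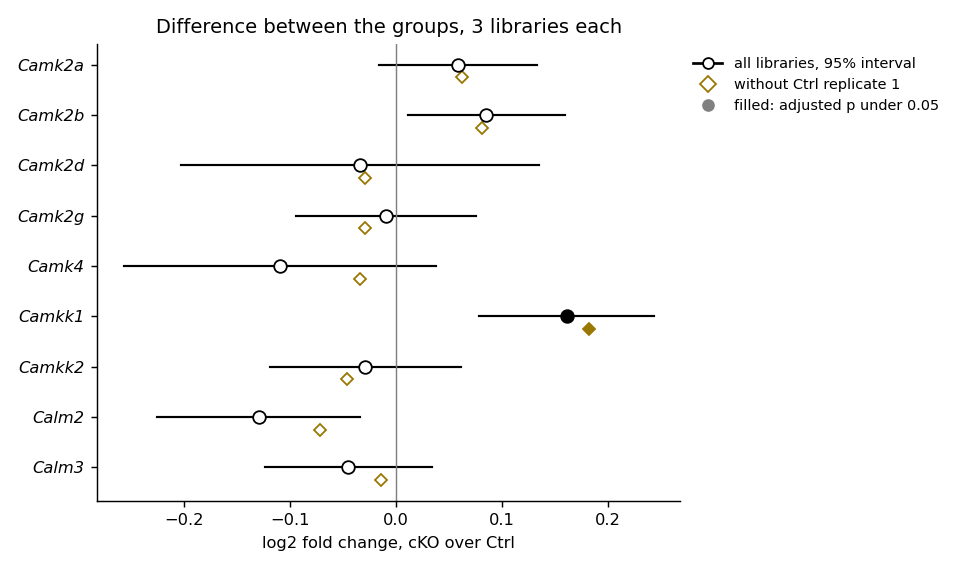
Log2 fold change, cKO over Ctrl, of each of the 9 genes with its 95% interval from edgeR's fit to all 6 libraries (circles), and the value without the library labelled Ctrl replicate 1 (diamonds). Filled symbols mark an adjusted p under 0.05, which Camkk1 alone reaches, with 0.16 and 0.18.

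The genes whose profile over the 6 libraries was most like that of Camkk1, by the root mean square difference of centred log2 CPM among 9789 other protein-coding genes with at least 10 CPM, were Ppp1cc (0.0134), Nfasc (0.0173) and Wdr19 (0.0188), where the median over those genes was 0.117. For Camk2a they were Palmd (0.0126), Add2 (0.0168) and Entpd5 (0.0173), against a median of 0.0938. Of these 6 genes only Nfasc, the gene of the axonal adhesion protein neurofascin, passed the test (log2 fold change 0.16, edgeR adjusted p = 0.0236). The profile takes in the difference between the groups, so a direction shared with Camkk1 or Camk2a follows from the choice of these genes.

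Sequence features differed among the 9 genes. The GC content of the longest transcript ran from 42.7% for Calm2 and 43.9% for Camk2d to 55.2% for Camkk1 and 58.3% for Calm3. The pentamer GGACT, a frequent form of the sequence in which N6-methyladenosine is placed, was counted on the transcript strand only, and its matches cannot overlap each other. It occurred in the longest transcript of all 9 genes, 2 times in Calm2 up to 7 times in Camkk2, and in 89.7% of tested genes with an annotated transcript. Its density was 0.543 per kilobase in Camk2d, 0.805 in Camk2a, 1.35 in Camkk1 and 1.66 in Calm2, against a median of 1.01 over tested genes. Methylation itself was not measured in these libraries.

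Of the partners of CaMKII, 19 inhibitors, phosphatases and postsynaptic proteins were tested, and 2 rose, 2 fell and 15 did not pass. Over all tested genes 3.07% rose and 0.874% fell. By edgeR 9 of the 19 had an unadjusted p under 0.05 (17.6% over all tested genes), and DESeq2 and limma-voom each called 5. With the library labelled Ctrl replicate 1 left out, 0 rose and 0 fell by the same edgeR test. Camk2n1, an endogenous CaMKII inhibitor and second to Gria1 in this list by FPKM, stood at 974, 949 and 941 CPM in Ctrl replicates 1, 2 and 3 and at 879, 874 and 865 CPM in cKO replicates 1, 2 and 3. All cKO libraries were below all controls, and Camk2n1 fell by 0.13 on the log2 scale with an edgeR adjusted p of 0.0492. This call was lost without any 1 of the 6 libraries (edgeR adjusted p 0.0781 to 0.198) and held after the GC and length correction (0.026). The related inhibitor gene Camk2n2, chosen after its values were seen, stood at -0.01 (edgeR adjusted p = 0.975).

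Grin1, the obligatory NMDA receptor subunit (0.16, edgeR adjusted p = 0.0292), and the actin crosslinker Actn1 (0.19, adjusted p = 0.0301) rose. Ppp2cb, a catalytic subunit of protein phosphatase 2A, fell (-0.25, edgeR adjusted p = 0.0202). Each of these 3 genes kept the call in 1 of the 6 fits that left out a library, with edgeR adjusted p-values up to 0.176, 0.142 and 0.0829, and after the GC and length correction that of Grin1 was 0.548, that of Actn1 0.0779 and that of Ppp2cb 0.0245. The median log2 fold change of the list was 0.03, and Gria1, the most abundant message in it, stood at 0.05 (edgeR adjusted p = 0.499).

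None of 16 other calmodulin-dependent kinases and relatives passed edgeR's test, with 4 (Camkv, Dclk2, Pnck and Cask) at an unadjusted p under 0.05, a limit that 17.6% of all tested genes met, 1 (Camkv) called by DESeq2 and 0 by limma-voom, and a median of 0.01. Camkv, a kinase-like protein of vesicles and the most abundant of them per length, stood at 0.13 (edgeR adjusted p = 0.0849) and Pnck at 0.16 (0.159). None of 15 tested calmodulin relatives, buffers and calcium sensors passed edgeR's test, with 5 (Ncald, Pcp4, Cabp7, Vsnl1 and Calb1) at an unadjusted p under 0.05 (17.6% over all tested genes), 1 (Ncald) called by DESeq2 and 0 by limma-voom. Without the library labelled Ctrl replicate 1, Pcp4, a calmodulin-binding peptide, passed with a log2 fold change of -0.89 (edgeR adjusted p = 0.00404), against -0.64 and 0.114 with all libraries. The median of this list was -0.07, with 4 of 15 values above 0 and 11 below, where 49.7% of all tested genes were above 0. Nrgn, the calmodulin-binding protein neurogranin and the most abundant of these messages per length, stood at 944, 962 and 963 CPM in Ctrl and 884, 969 and 882 CPM in cKO, with overlap between the groups (-0.07, edgeR adjusted p = 0.419). The calcium sensor hippocalcin, encoded by Hpca, stood at 908 ± 33.6 CPM in Ctrl and 907 ± 10.4 CPM in cKO.

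Among 15 genes linked to CaMKK, which were kinases, AMPK subunits and the synaptic proteins Git1 and Arhgef7, none passed edgeR's test. By edgeR 1 (Pnck) had an unadjusted p under 0.05 (17.6% over all tested genes). DESeq2 and limma-voom each called 0, and the median was 0.02. Pnck and some other kinases of this list are also counted among the other calmodulin-dependent kinases above. The genes in brackets beside the unadjusted counts were chosen after their values were seen. Git1 stood at 0.06 (edgeR adjusted p = 0.52). Of 24 CREB-related and CaMK-regulated transcription genes 2 rose (3.07% over all tested genes) and 22 did not pass, with a median of 0.00. By edgeR 5 of the 24 had an unadjusted p under 0.05 (17.6% over all tested genes), and DESeq2 and limma-voom each called 2. Crtc2, a CREB coactivator, rose by 0.33 on the log2 scale, with means of 34.97 ± 1.08 CPM in Ctrl and 43.9 ± 3.03 CPM in cKO (edgeR adjusted p = 0.012), and did not pass without cKO replicate 2 (adjusted p = 0.0611). Camta2, a calmodulin-binding transcription activator, rose from 446 ± 9.83 to 494 ± 0.88 CPM (0.15, edgeR adjusted p = 0.0359), with adjusted p-values of 0.0633 to 0.143 when any library but Ctrl replicate 1 was left out, and 0.53 once GC and length were corrected. Mef2d stood at -0.02 (edgeR adjusted p = 0.882).

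Of 22 other enzymes, pumps and channels regulated by calmodulin 1 fell (0.874% over all tested genes) and 21 did not pass, with a median of -0.01. By edgeR 7 of the 22 had an unadjusted p under 0.05 (17.6% over all tested genes). Without the library labelled Ctrl replicate 1, 1 rose (Itpr1, edgeR adjusted p = 0.0236) and 2 fell (Ppp3ca, and Adcy8 with an adjusted p of 0.0162), and with all libraries DESeq2 and limma-voom each called 3. Itpr1 and Adcy8 were chosen after their values were seen. Ppp3ca, the catalytic subunit of the calmodulin-dependent phosphatase calcineurin, fell from 2330 ± 43.9 to 2114 ± 66.5 CPM (-0.14, edgeR adjusted p = 0.0387), and kept its call without Ctrl replicate 1 (0.0404) or cKO replicate 1 (0.0392) but not without the other libraries (0.0555 to 0.202) or with GC and length corrected (0.0814). Adcy1, the calmodulin-stimulated adenylyl cyclase and the most abundant message of this list, stood at 0.09 (edgeR adjusted p = 0.265).

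**Figure D4:**
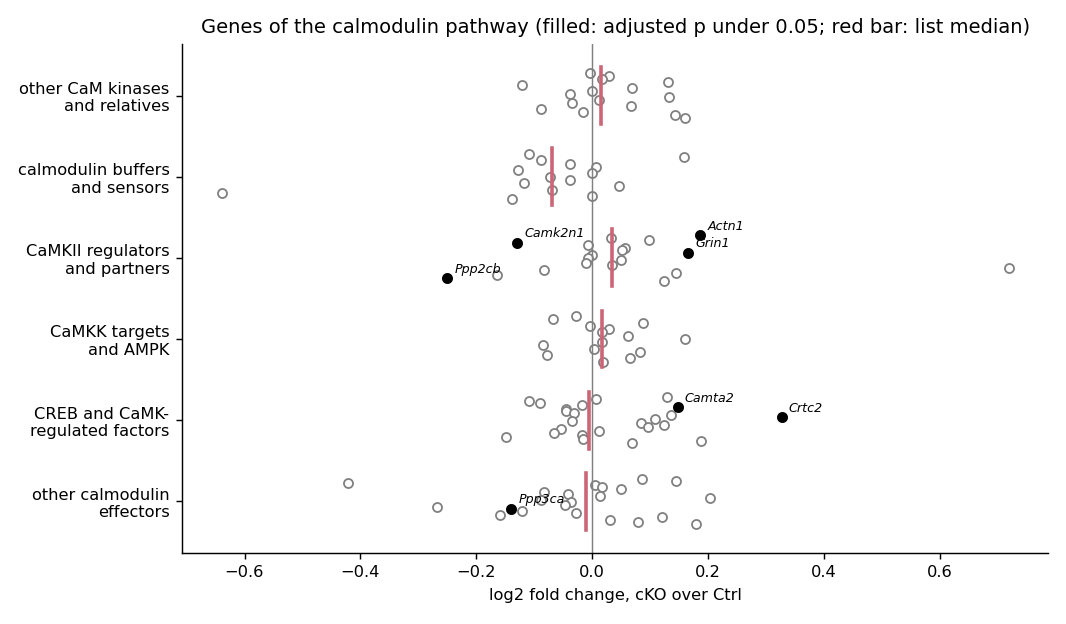
Log2 fold change, cKO over Ctrl, of each tested gene in 6 lists of calmodulin pathway genes, with filled and named points for an adjusted p under 0.05 and a red bar at the median of each list. The 7 filled points are 4 that rose and 3 that fell, and the medians lie between -0.07 and 0.03.

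**Figure D5:**
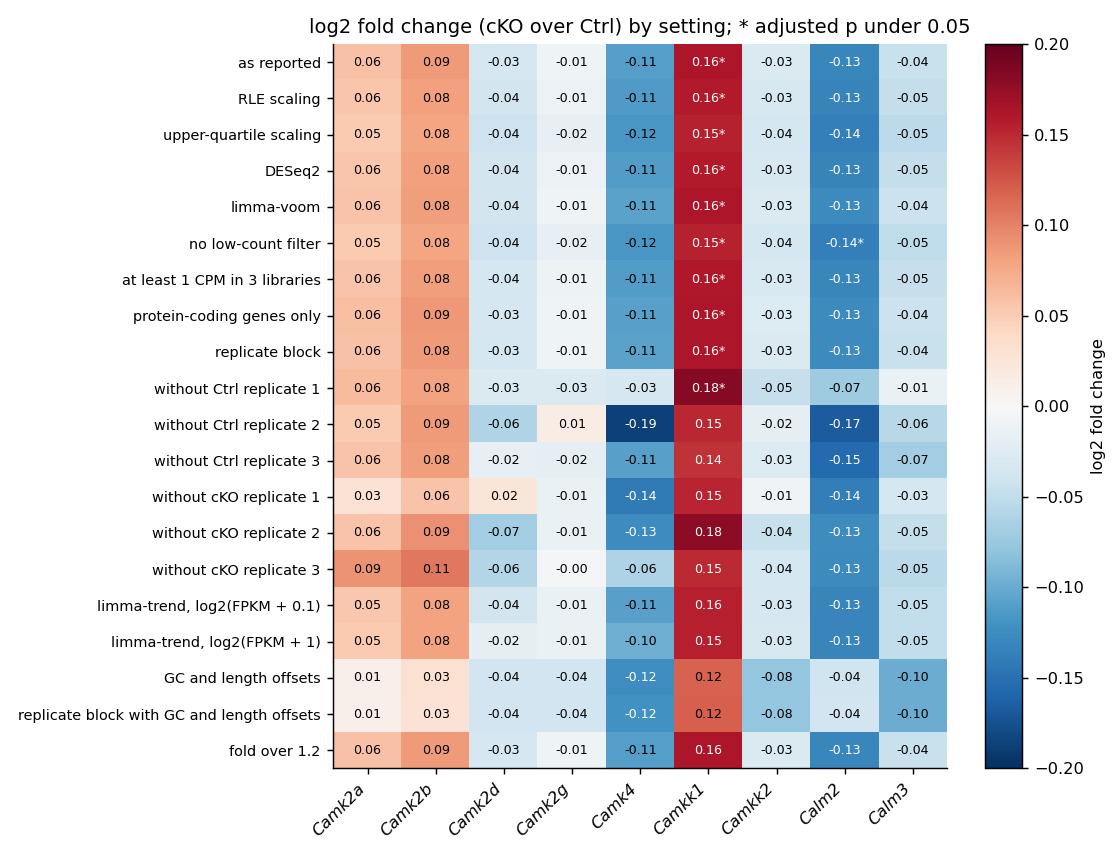
Log2 fold change of the 9 genes (columns) under the reported settings and the 19 alternatives (rows), with the colour and the number giving the value and an asterisk an adjusted p under 0.05. Camkk1 is above 0 in every row and Calm2 is marked in 1 row, that with no filter on low counts.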

How the data were processed

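RNA-seq of mouse dentate gyrus comprised 3 cKO and 3 Ctrl libraries, made from total RNA with a NEBNext Ultra kit. The submitters' processing notes name HISAT2 2.0.5, StringTie 1.3.3b, featureCounts 1.5.0-p3 and GRCm38. The sources used here do not say which tool made which value or whether strand was used. The deposited count table holds raw read counts per gene. The deposited FPKM table divides those counts by gene length and library total, since its implied totals were 99.8% to 101% of the summed counts. No column of per-sample values was left unused (0).

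Counts were tested with edgeR 4.0.16 (R 4.3.3) by the quasi-likelihood test on group, after TMM scaling and a filter (minimum count 10, minimum total 15). P-values were adjusted by Benjamini-Hochberg over 16928 genes, at a false discovery rate of 0.05. FPKM served for levels between genes and for family shares. Totals of 16794642 to 19190101 counts make 1 count worth 0.0521 to 0.0595 CPM, and the common coefficient of biological variation was 5.67%. Replicates differed by more than sampling noise, so none was merged. Chi-square over degrees of freedom was 4.70 and 4.49 for Ctrl replicate 1 against Ctrl replicates 2 and 3, and 2.71 between those. Among cKO replicates it was 3.18 to 3.47. The scripts were tested on simulated data.

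The named genes were the 9 genes, Ythdf2, from each pathway list up to 4 changed genes of smallest p and the 2 of highest FPKM, the nearest profiles of Camkk1 and Camk2a, and overlapping genes and copies. Genes outside this rule are marked where named. Marker genes are named where they passed with all libraries or without the library labelled Ctrl replicate 1. Prox1 and C1ql2 did not pass and are named as levels only. Members and lists were chosen with earlier results of these data known. Some genes of these lists are not reported here and enter no count of them. Calmodulin sequences and transcripts came from GENCODE M21 (GRCm38), and copies were sought with BLAST 2.17.0 (at least 85% identity over 200 bases). The 19 alternatives covered scaling, filter, tool (DESeq2 1.42.0, limma 3.58.1), gene class, replicate block, each library left out, log2 FPKM, GC and length offsets (loess span 0.3) and a fold of 1.2. The CPM or FPKM of 1 library carry counting error that is small at these depths, and no interval was computed for them.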

Additional observations from a re-analysis of the deposited data

How the results depend on the processing

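The count of genes changed (668) was 1155 with no filter on low counts, where 63.1% rather than 77.8% rose, 110 and 95 on log2 FPKM with pseudocounts of 0.1 and 1, 407 with GC and length offsets and 27 against a fold of 1.2. Leaving out 1 library gave 214 to 535. Of the 9 genes, 1 passed. With no filter 2 did, and 0 did on log2 FPKM with either pseudocount, with GC and length offsets, with those offsets and the replicate block, and against a fold of 1.2, while leaving out 1 library gave 0 to 1. Camkk1 (0.161) kept its direction under all 19 alternatives and its call under 9. It did not pass at 0.156 and 0.155 on log2 FPKM, 0.118 with GC and length offsets, 0.119 with those offsets and the replicate block, or 0.161 against a fold of 1.2, and leaving out 1 library gave 0.145 to 0.182. Its adjusted p over the alternatives ran from 0.00411 to 1. Calm2 passed at -0.136 with no filter, and leaving out 1 library gave -0.166 to -0.0712. Without 1 library Ythdf2 ran from -0.293 to 0.0687 (0.0605 without Ctrl replicate 2), Camk2d from -0.0699 to 0.0236 and Camk2g from -0.0294 to 0.0149. The rise of the Camkk1 share within the CaMKK pair was 1.42 percentage points, and 2.39 with the longest transcript as length. The replicate block changed no call of the 9 genes on its own (808 genes changed in all) and ended that of Camk2n1 (adjusted p = 0.0531). Deviations of same-numbered libraries correlated at 0.0914, 0.018 and 0.00846, so the numbers were not taken to pair them. Fewer libraries were tested where 1 was left out; the cause of the other differences was not tested. Read depth limits Camk2d most, at 327 to 427 counts per library.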
